A study of Myzus persicae with 8 samples.

Results

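Contig6679 and contig9752, both annotated as asparagine synthetase, and contig427, annotated as threonine dehydratase deaminase, are 3 of the 10489 contigs on an array of assembled transcripts of the green peach aphid, Myzus persicae. They were chosen from the study's list of contigs up-regulated by insecticide in genotype S, in which they have these names. Their ratios and levels in S are therefore given as a description, without a test. In all, 4 of the 14628 probes read them, 1 each for contig6679 and contig9752 and 2 for contig427, and all were measured on every one of the 8 arrays. Annotations are best database matches. Contig6679 and contig9752 share one match, so these contigs may be pieces of the same gene and are not independent readings of a pathway.

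The aphids were wingless adults, 7 days old and taken as whole bodies, kept on discs of pepper leaf. SR is heterozygous for kdr, a mutation of the voltage-gated sodium channel that pyrethroids act on. MR is heterozygous for kdr and for MACE, a modified form of acetylcholinesterase, which is the enzyme that carbamates block. S carries none of the mutations that the study screened, which were kdr, MACE and super-kdr, another mutation of the sodium channel. Each genotype is represented by a single clonal lineage, so a difference between genotypes is a difference between 3 clones. Insecticide-treated aphids were sprayed with the carbamate pirimicarb (1 ml at 20 ppm, made up in acetone and water), and water alone was sprayed on the others of the genotype. The methods name acetone for the insecticide spray only, whereas one label field names it for the control too, so that an effect of acetone and one of pirimicarb cannot be told apart here. Only aphids alive after 24 hours were frozen, and each RNA extract came from about 40 of them, which makes the insecticide-treated pools pools of survivors. This dose was above the median lethal concentration that the study's leaf-dip test gave for S and SR, and below that for MR. Relative to that measure, the genotypes were thus not equally exposed. Changes of RNA per cell and changes in the share of a tissue cannot be told apart in whole bodies.

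Asparagine synthetase transfers an amino group from glutamine to aspartate at the expense of ATP and so forms asparagine. In mammalian cells its gene is a well-known target of the response to amino acid shortage. Threonine dehydratase deaminates threonine to 2-oxobutyrate, from which bacteria and plants build isoleucine and which animals convert to propionyl-CoA. Aphids feed on phloem sap, in which asparagine and glutamine are often the main amino acids, and obtain much of their supply of essential amino acids, threonine and isoleucine among them, from the bacterial symbiont Buchnera.

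Every array set insecticide-treated against water-treated aphids of 1 genotype, in opposite dyes. SR had 2 replicates (A and B), MR 2 (A and B, with 2 arrays for A that are counted as 1 replicate) and S 3 (A, B and C). The insecticide-treated RNA was in Cy5 in replicate A of every genotype and in S replicate C, and in Cy3 in replicate B. In SR and MR each replicate thus had its own dye, and replicate and dye cannot be told apart. One label of S replicate A names SR as its genotype, whereas its title and description name S, which was used. Over all probes its ratios correlated at r = 0.39 with SR A, 0.24 with SR B, 0.29 with S B and 0.30 with S C. With both MR A arrays r was -0.47, and with MR B it was 0.35. SR A, S C and both MR A arrays shared its dye orientation. Which genotype the array held was not tested. The second array of MR replicate A is titled with another letter for its water sample but described as a technical repeat. The study's methods instead count as many biological replicates for MR as for S, and under that reading the mean log2 ratios in MR given below would be -1.27 for contig6679, -1.20 for contig9752 and -0.20 for contig427. Per array, 87.1% to 93.4% of the probes exceeded background clearly in each channel, and contigs for muscle, gut, cuticle and salivary proteins did so on at least 7 of the 8 arrays. Over all probes, the ratios of both arrays of MR replicate A correlated with each other at r = 0.98 and with those of MR replicate B at r = -0.55 and -0.54, so the MR replicates ran in opposite directions across the array and an MR mean averages over opposite values. The MR A arrays also had negative r with S B (-0.46 on each), SR A (-0.14) and SR B (-0.23), and -0.01 with S C. MR B had r of 0.32 with S B, -0.05 with S C, 0.07 with SR A and 0.26 with SR B. The SR replicates and the MR replicates are each other's dye swap, and their directions follow the dyes in the labels. Whether the labelled dyes of the MR arrays are right was not tested. If those of a replicate were reversed, its directions given below would be reversed too.

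In SR, all 3 contigs were far higher in insecticide-treated than in water-treated aphids in replicate A and slightly lower in replicate B. Contig6679 had 5.88 times the water level in SR replicate A (log2 ratio 2.56) and 0.69 times in SR replicate B (log2 ratio -0.53). Contig9752 had 5.85 times the water level in replicate A (2.55) and 0.721 times in replicate B (-0.47). Contig427 had 6.42 times the water level in replicate A (2.68) and 0.846 times in replicate B (-0.24). The replicates of SR thus disagreed in direction for every one of the 3, and replicate A alone carried the positive means. Such disagreement was common, as 44.2% of all contigs kept one direction over both SR replicates. On the array of SR replicate A, the 4 probes held places 17 to 22 from the top of 14624 ranked probes. On that of replicate B they lay in the lower part, with contig6679 at place 333 from the bottom of 14617 and the 2 probes of contig427 at places 1586 and 2724.

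The position in SR replicate B depended on what the whole array did. There, the probe of contig6679 had a raw median intensity of 2203 in the insecticide channel and 1417 in the water channel, which is higher under insecticide. The median probe of that array had 2.12 times more raw signal in the insecticide channel, which carried Cy3, and after normalization the ratio of contig6679 lay below the bulk. Under each of 6 other ways of correcting and normalizing the signal it stayed below 0, between -0.59 and -0.45. In SR replicate A the same probe read 2403 in the insecticide channel and 598 in the water channel, on an array where the median probe had 0.72 times as much raw signal in the insecticide channel.

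**Figure D1:**
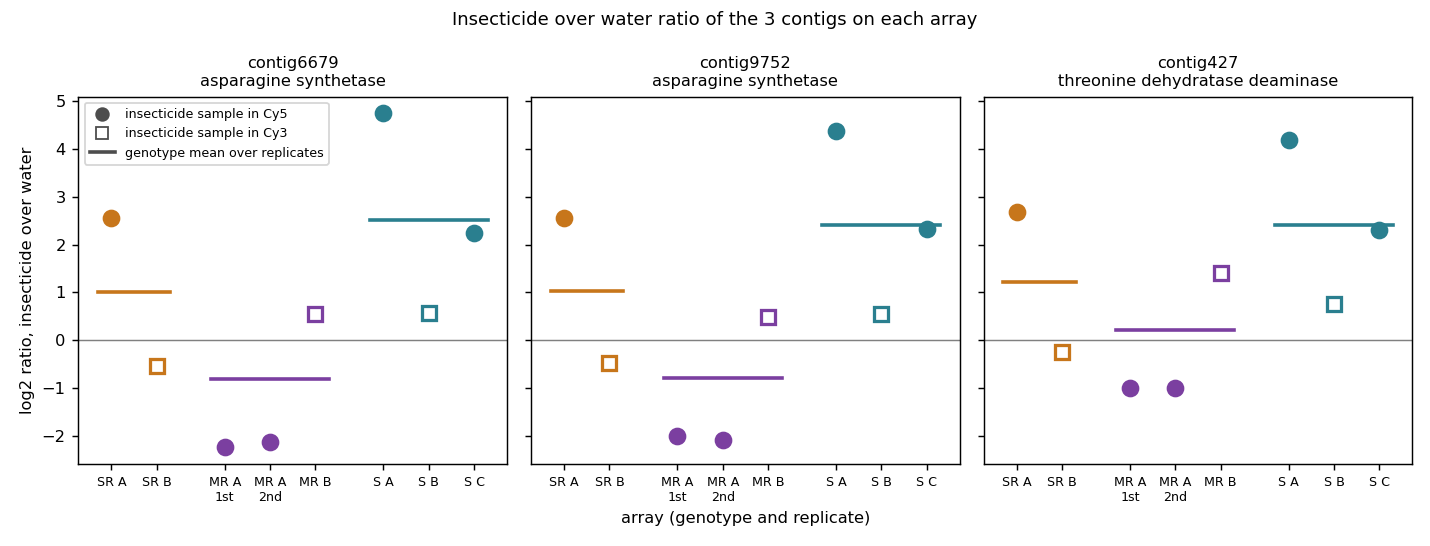
Log2 ratio of insecticide-treated over water-treated aphids for the 3 contigs on each of the 8 arrays, with genotypes SR, MR and S from left to right; filled circles mark arrays with the insecticide sample in Cy5, open squares those with it in Cy3, and lines the mean over replicates (both arrays of MR A averaged first). For contig6679 SR A stands at 2.56 and SR B at -0.53, both MR A arrays lie below -2, MR B stands at 0.54, and the S values spread between 0.57 and 4.74.

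The mean log2 ratio in SR was 1.01 ± 2.19 for contig6679, 1.04 ± 2.14 for contig9752 and 1.22 ± 2.07 for contig427 (SD, n = 2 each), so that the spread was larger than every mean. None of the 4 probes passed the study's thresholds, a log2 ratio over 1 in size and an unadjusted P under 0.05 in the limma fit. By these, 0.164% of all probes were called up and 0.95% down in SR. The limma fit gave unadjusted P = 0.27 for contig6679, 0.25 for contig9752 and 0.18 and 0.17 for the probes of contig427, each with an adjusted p of 1.0 (Benjamini-Hochberg over all probes). No probe of the array had an adjusted p under 0.05 in SR in limma, while 296 had an unadjusted P under 0.05.

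In MR the order of the replicates was the other way round. Contig6679 was 4.69 and 4.37 times lower in insecticide-treated than in water-treated aphids on the first and second array of MR replicate A (log2 ratios -2.23 and -2.13) and 1.46 times higher in replicate B (0.54). Contig9752 was 4.01 and 4.26 times lower on the arrays of replicate A (-2.00 and -2.09) and 1.40 times higher in replicate B (0.49). The repeated hybridization of replicate A gave nearly the same values, and replicate B lay on the other side of 0. Contig427 was 2.00 and 1.99 times lower on the arrays of replicate A (-1.003 and -0.99) and 2.66 times higher in replicate B (1.41). Most contigs changed direction too, as 23.2% of all contigs kept one direction over both MR replicates.

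Within MR, the asparagine synthetase contigs and contig427 therefore held different places. In MR replicate A the probe of contig6679 was at places 68 and 75 from the bottom of 14621 and 14623 ranked probes, while those of contig427 were at places 1048 to 1180. In MR replicate B the probes of contig427 were at places 30 and 70 from the top of 14628, while contig6679 was at place 1905 and contig9752 at place 2318. For asparagine synthetase the larger deviation lay in replicate A, and for contig427 in replicate B. Contig4946, another contig named threonine dehydratase, was at places 3166 and 3187 from the bottom on the MR A arrays. In MR B it was at place 3412 from the top, so it did not share the high place of contig427.

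Mean log2 ratios in MR were -0.82 ± 1.93 for contig6679, -0.78 ± 1.79 for contig9752 and 0.21 ± 1.70 for contig427 (SD, n = 2 each). No probe of the 3 contigs passed the thresholds, by which 0.0137% of all probes were called up and 0.622% down. Their unadjusted P lay between 0.26 for contig6679 and 0.82 for 1 probe of contig427, with adjusted p of 1.0 throughout (limma). Genome-wide, 0 probes had an adjusted p under 0.05 in MR and 93 an unadjusted P under 0.05. With the 3 MR arrays counted as separate replicates, the mean of contig427 changed its sign to -0.20.

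In dye terms, the Cy5 over Cy3 ratio of each of the 3 contigs was above 0 on both SR arrays and below 0 on all MR arrays. Among all 10425 contigs with a ratio in every replicate, 55.8% kept one sign of Cy5 over Cy3 over both SR replicates and 76.8% over both MR replicates. As the replicates are dye swaps, these are the contigs whose insecticide over water ratio changed sign. The part of dye in the ratios of the 3 contigs was not tested, since dye and replicate coincide within SR and MR.

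In S, from whose ratios the contigs were chosen, all 3 were higher under insecticide in every replicate, by very different amounts. Contig6679 had 26.8, 1.48 and 4.75 times the water level in S replicates A, B and C. Contig9752 had 20.7, 1.46 and 4.99 times the water level, and contig427 had 18.1, 1.69 and 4.97 times, in the same order. Replicate A stood far above the others, replicate C was intermediate and replicate B lay lowest. Means were 2.52 ± 2.10 for contig6679, 2.41 ± 1.91 for contig9752 and 2.42 ± 1.71 for contig427 on the log2 scale (SD, n = 3 each). On the array of S replicate A the 4 probes were the top 4 of 14598 ranked probes, in the order contig6679, contig9752 and the 2 probes of contig427. On that of replicate C they held places 69 to 82 and on that of replicate B places 353 to 994. The water channel of S replicate A was not well above background for contig6679 and for 1 probe of contig427, so their ratios there rest on a dim signal (raw median intensities of 223 and 199 in the water channel against 8872 and 6087 in the insecticide channel). Without that array, which is also the one with a conflicting label, the means in S were 1.41 for contig6679, 1.43 for contig9752 and 1.54 for contig427.

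Over the replicates of all genotypes, each contig ran over a wide span. The SD of the log2 ratio over the 7 replicates was 2.26 for contig6679, 2.13 for contig9752 and 1.78 for contig427, against a median of 0.39 over all contigs. Only 0.0863%, 0.173% and 0.739% of contigs had a larger SD than contig6679, contig9752 and contig427. This is a description, since the S ratios that chose the contigs are part of it.

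**Figure D2:**
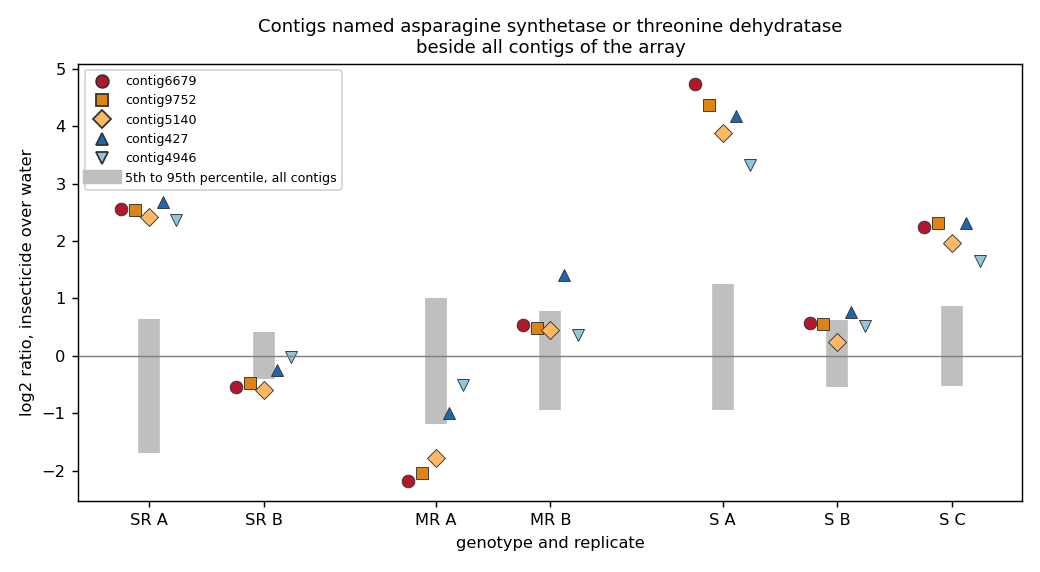
Log2 ratio of insecticide over water, by genotype and replicate, of the contigs named asparagine synthetase (contig6679, contig9752, contig5140) or threonine dehydratase deaminase (contig427, contig4946), with grey bars for the 5th to 95th percentile of all contigs. The 5 contigs stand above the bar in SR A, S A and S C, while in SR B and MR A the asparagine synthetase contigs lie under it and contig427 and contig4946 inside it.

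The spread of the ratios came with movement in both channels, not in the insecticide-treated one alone. Levels here are log2 intensities of each channel after loess and between-array scaling of the mean intensity, and they compare samples for 1 contig but not contigs with each other. In insecticide-treated aphids contig6679 stood at 12.04 and 10.48 in SR A and B, at 9.74 and 9.76 on the arrays of MR A and 10.59 in MR B, and at 13.12, 10.67 and 12.25 in S A, B and C. In water-treated aphids it stood at 9.48 and 11.01 in SR A and B, at 11.97 and 11.88 on the arrays of MR A and 10.05 in MR B, and at 8.38, 10.11 and 10.00 in S A, B and C. The level of 8.38 in S A rests on a signal not well above background. Leaving out S A, the range of contig6679 over the other replicates was 2.505 log2 units in insecticide-treated aphids and 2.44 in water-treated aphids.

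Contig9752 followed the same course, with levels of 12.10 and 10.38 in insecticide-treated SR A and B against 9.55 and 10.86 in water-treated SR A and B. In MR it had 9.71 and 9.62 on the arrays of replicate A and 10.51 in replicate B in insecticide-treated aphids, against 11.72 and 11.71 on the arrays of replicate A and 10.02 in replicate B in water-treated aphids. In S it had 12.89, 10.52 and 12.22 in insecticide-treated replicates A, B and C, against 8.52, 9.97 and 9.90 in water-treated ones. The lowest insecticide level and the highest water level of contig9752 both belonged to MR replicate A, and the highest insecticide level and the lowest water level both to S replicate A.

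Contig427 moved less in the water channel. In SR it had 11.84 and 9.59 in insecticide-treated aphids of replicates A and B, against 9.16 and 9.84 in water-treated ones. In MR it had 9.34 and 9.29 on the arrays of replicate A and 10.20 in replicate B in insecticide-treated aphids, against 10.34 and 10.28 on the arrays of replicate A and 8.79 in replicate B in water-treated aphids. In S the insecticide levels of contig427 were 12.79, 10.62 and 11.55 in replicates A, B and C, against water levels of 8.61, 9.86 and 9.24. Its insecticide levels spanned 3.47 log2 units and its water levels 1.70, or 2.52 and 1.52 without S A, where 1 of its probes was dim in the water channel.

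Over the 7 replicates, the SD of the insecticide level was 1.21, 1.20 and 1.27 for contig6679, contig9752 and contig427, and the SD of the water level was 1.12, 1.00 and 0.62. The median contig had an SD of 0.28 in the insecticide channel and 0.31 in the water channel. A larger SD of the water level than that of contig6679 was found in 2.80% of contigs, than that of contig9752 in 3.69% and than that of contig427 in 14.5%. These SDs include differences between genotypes. Between replicates of the same genotype, pooled over the 3 genotypes, the SD of the water level was 1.096 for contig6679, 0.95 for contig9752 and 0.74 for contig427, against 0.30 for the median contig, and 2.82%, 4.14% and 8.48% of contigs had a larger one. This SD took no account of dye, which differed between replicates A and B, and it includes the dim water signal of S A. All SDs of this paragraph include the S levels, which make up the ratios that chose the contigs. They and the shares of contigs are therefore a description.

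**Figure D3:**
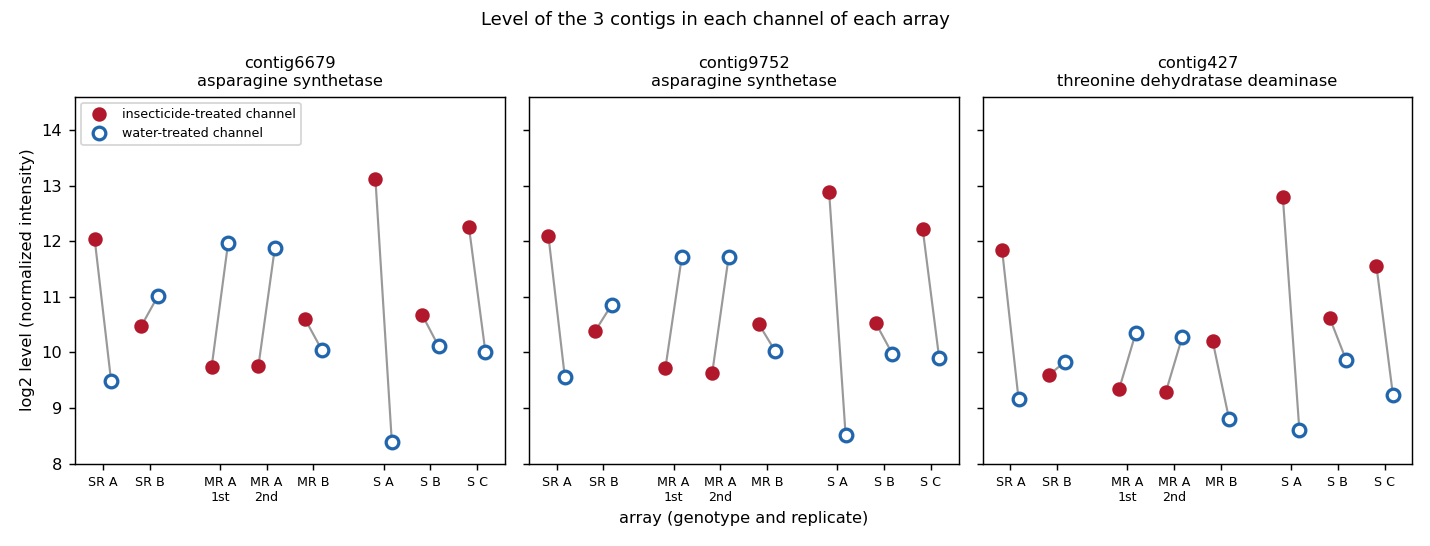
Log2 level (normalized intensity) of the 3 contigs in the insecticide-treated channel (filled) and, to its right, the water-treated channel (open) of each of the 8 arrays. The slope of the lines turns between replicates: on both MR A arrays the water level of contig6679 lies near 11.9 and the insecticide level at 9.74 and 9.76, and on S A the water level lies at 8.38 and the insecticide level at 13.12.

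Neither the response nor the level in water-treated aphids was shown to differ between SR and MR. The response to insecticide was higher in SR than in MR by 1.83 log2 units for contig6679 (SE 1.60), by 1.82 for contig9752 (SE 1.497) and by 1.09 (SE 1.39) and 0.94 (SE 1.40) for the probes of contig427, with an adjusted p of 1.0 each (limma, 1 fit of all 7 replicates). Unadjusted P were 0.29, 0.26, 0.46 and 0.52. The spread in this fit, and in that of the water level below, comes partly from the S replicates, S A among them, whose ratios chose the contigs. Over all probes 0% had an adjusted p under 0.05 for this difference, and 240 probes had an unadjusted P under 0.05. The difference of the water level, SR minus MR with the dye of the channel as a term, was -0.74 for contig6679 (SE 0.94), -0.66 for contig9752 (SE 0.82) and -0.07 and -0.05 for the probes of contig427 (SE 0.64 and 0.66), with adjusted p between 0.95 and 0.99 (limma). By that test 0.0273% of all probes had an adjusted p under 0.05. Without SR replicate A or without MR replicate A, the water difference of contig6679 turned to 0.17 or 0.79. Neither absence of a difference nor its size was settled by 2 replicates each.

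The asparagine synthetase contigs tracked each other array by array. The log2 ratios of contig6679 and contig9752 differed by at most 0.37, on S replicate A, and by 0.23 or less on the other 7 arrays, while their own ratios ran over the span from MR A, at -2 and below, up to S A, above 4. Pearson's r between them over the 7 replicates was 0.999, over the 4 replicates of SR and MR alone 1.00. Both are read on the same arrays from the same RNA, so this shows that the swings were shared by 2 separate probes, not that they recurred in other aphids. The probes of contig427 likewise differed by at most 0.21 on any array. The repeat hybridization of MR replicate A differed from the first by at most 0.10 for the 3 contigs, against a median difference of 0.04 over all probes.

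Contig427 moved with the asparagine synthetase contigs, with a shift in MR. On SR A and SR B, the ratio of contig427 lay 0.13 and 0.26 above the mean of contig6679 and contig9752 on the log2 scale. On the arrays of MR A it lay 1.11 and 1.12 above, and on MR B 0.89 above. On S A, B and C it lay -0.38, 0.20 and 0.03 from it. The MR differences correspond to a factor of 1.86 to 2.17. Whether this offset differs between genotypes was not tested, MR having 2 replicates of a single clone, and it was not shared by the other threonine dehydratase contig on MR B (described further on). Over the 7 replicates r was 0.99 between contig427 and each asparagine synthetase contig, and 0.98 over the 4 replicates of SR and MR.

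**Figure D4:**
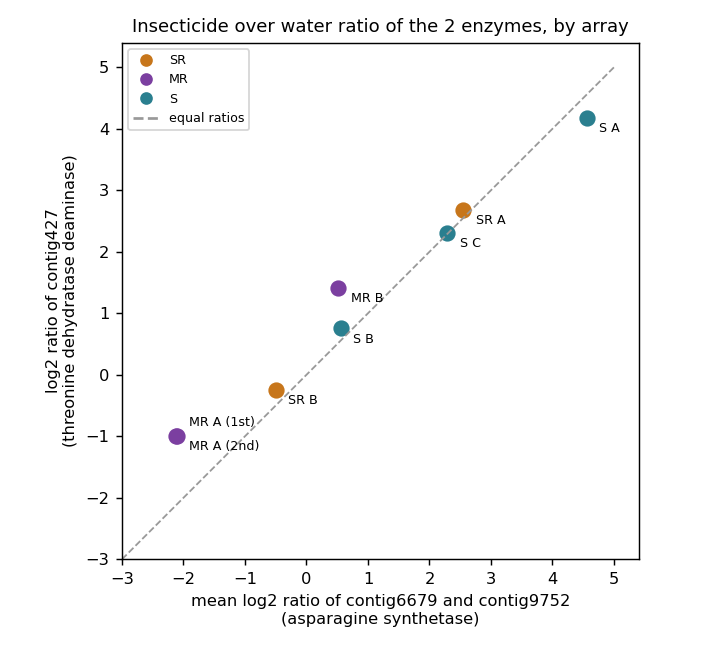
Log2 ratio of insecticide over water for contig427 (threonine dehydratase deaminase, y axis) against the mean of contig6679 and contig9752 (asparagine synthetase, x axis), 1 point per array, coloured by genotype, with a dashed line of equal ratios. The points of SR and S lie within 0.38 of the line and those of MR 0.89 to 1.12 above it.

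The study's list names another asparagine synthetase contig, contig5140, and another threonine dehydratase contig, contig4946, each with the same best match as its namesakes here. Contig5140 had log2 ratios of 2.42 and -0.59 in SR A and B, -1.79 and -1.78 on the arrays of MR A, 0.44 in MR B, and 3.88, 0.25 and 1.97 in S replicates A, B and C. Its signs were those of contig6679 on every array, with r of 0.996 between them over the 7 replicates and a smaller span. Contig4946 had log2 ratios of 2.37 and -0.01 in SR A and B, -0.50 on both arrays of MR A, 0.36 in MR B, and 3.33, 0.52 and 1.65 in S A, B and C. It differed from contig427 most on MR B, where it lay 1.05 lower. Set against the mean of contig6679 and contig9752, contig4946 lay 1.61 above on both arrays of MR A, further than contig427, but at -0.16 from it on MR B, so the threonine dehydratase contigs went apart there. On SR A and B it lay -0.18 and 0.49 from that mean, and on S A, B and C -1.23, -0.04 and -0.63.

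The other contigs of amino acid metabolism and transport on the study's list number 9 with these namesakes. As all 9 come from the list of contigs up-regulated in S, their higher ratios in every S replicate (9 of 9, against 21.8% of all contigs above 0 and 26.4% below 0 in every S replicate) were fixed by the choice. In SR, 2 of 9 were above 0 in both replicates and 0 of 9 below 0 in both, against 21.7% and 22.5% of all contigs. These were contig395, pyrroline-5-carboxylate reductase, which completes proline synthesis, with 1.12 and 0.11 in SR A and B, and contig15323, aspartate 1-decarboxylase, which forms beta-alanine for cuticle tanning in insects, with 1.17 and 0.38. In MR, 0 of 9 were on one side of 0 in both replicates, against 11.9% of all contigs above and 11.3% below. None of the 9 passed the study's thresholds in SR or MR, and the lowest unadjusted P was 0.053, for contig15323 in SR.

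The replicates of the 9 fell apart in the same order as those of the 3 contigs. The median log2 ratio of the 9 was 1.12 in SR A and 0.07 in SR B, -1.23 in MR A and 0.87 in MR B, and 3.18, 0.56 and 1.33 in S A, B and C. In MR A 2 of 9 were above 0, and in MR B 7 of 9. The median of all contigs was within 0.03 of 0 in every replicate. Contig6469, a branched-chain amino acid aminotransferase, which transfers the amino group of isoleucine, leucine and valine, had 1.78 (A) and -0.37 (B) in SR, -1.35 (A) and 1.21 (B) in MR, and 3.18, 0.78 and 1.33 in S A, B and C. It thus changed sign between the replicates of SR and of MR like contig427, as more contigs than not did within each of these genotypes.

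Not all of the 9 did so. Contig1141, nitrilase member 2, had -1.79 (A) and 0.07 (B) in SR, and 0.31 (A) and -0.33 (B) in MR, which is the reverse order of replicates in both genotypes. Contig6251, cg8132, which has the same best match as contig1141, had -0.56 (A) and 0.05 (B) in SR and -0.06 (A) and 1.73 (B) in MR. The amino acid transporters, contig6287 and contig6024, stood at -0.28 and -0.44 in SR A, where contig6679 and contig9752 exceeded 2.5, and at -1.23 and -1.30 in MR A, where those were below -2. In SR A, contig5140, contig4946, contig6469, contig395 and contig15323 stood at 1.12 to 2.42, whereas the transporters and nitrilases were below 0. In SR B those same contigs stood between -0.59 and 0.38, so the contrast rests on SR A alone. Contig5140 and contig4946 share their best matches with the 3 contigs and are not separate readings.

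**Figure D5:**
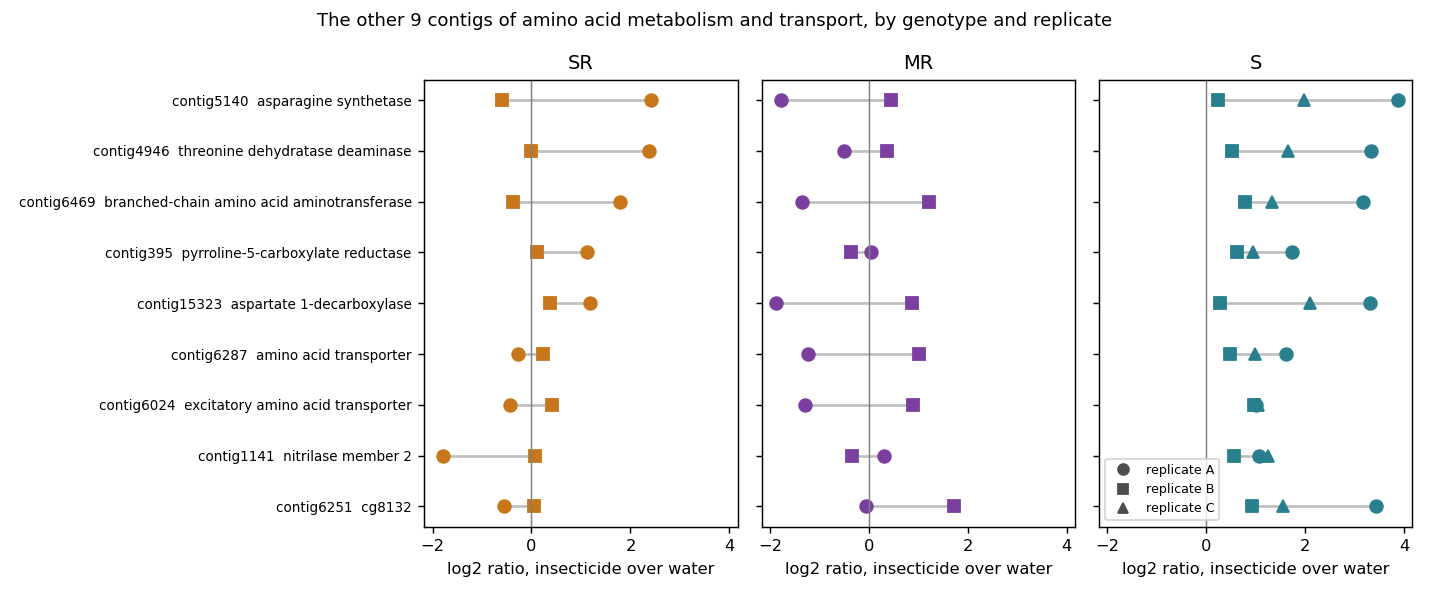
Log2 ratio of insecticide over water of the other 9 contigs of amino acid metabolism and transport in SR, MR and S (panels), with 1 marker per replicate (circle A, square B, triangle C) and a grey line over their range. In SR the upper 5 contigs have replicate A at 1.12 to 2.42, in MR 6 of the 9 have replicate A at or below -0.50 with replicate B above 0, and in S, whose ratios chose these contigs, all values lie above 0.

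The contigs whose ratios were most like those of the 3 were sought among the contigs with an SD of at least 0.5 over the 7 replicates and a probe well above background in both channels of all arrays, by Pearson's r. For contig6679, 2808 contigs qualified, and the nearest was contig9752, followed by contig15040 (an unknown protein, r = 0.99), contig8351 (0.99), contig427 (0.99) and contig2117 (0.99). Contig6679 and contig5140 were not themselves candidates, since their water channel on S A was not well above background, although their r was 0.999 and 0.998 with contig9752 and 0.989 and 0.992 with contig427. For contig9752 the 5 nearest candidates were contig15040, contig2734, contig8351, contig427 and contig2117, with r of 0.99 for each. For contig427 they were contig968, contig7948, contig2734, contig9752 and contig4664, all at r = 0.99. In all, 39 contigs exceeded r = 0.95 with contig6679, 35 with contig9752 and 43 with contig427. S replicate A is the most extreme of the 7 points for each of the 3, so r leans on that array, and no p is given. The S ratios that chose the 3 contigs enter both r and the SD filter, so the neighbours and their counts are a description.

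Among these, leaving aside the 3 contigs themselves, contig2734 came nearest in size too. This contig is annotated as myo-inositol oxygenase, which opens the inositol ring for breakdown to glucuronate. It had log2 ratios of 2.16 (A) and -0.22 (B) in SR, -0.67 (A) and 0.82 (B) in MR, and 3.05, 0.90 and 2.02 in S A, B and C. Contig15040 moved over a smaller span, with 1.03 (A) and 0.05 (B) in SR, -0.57 (A) and 0.19 (B) in MR, and 1.94, 0.30 and 0.93 in S A, B and C. Both share the sign of each replicate with the 3 contigs except contig15040 in SR B.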

How the data were processed

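The authors deposited Agilent Feature Extraction 10.1.1.1 output for 8 two-colour arrays, in which median and background signals are intensities on a linear scale, not yet normalized. Their tables of fold changes and p-values per genotype, made with limma, hold the study's own comparisons and were not used. Median signals were background-corrected (normexp, offset 50), a choice made here, as the methods name no background correction. They were then loess-normalized within arrays, as the methods state, with control spots at weight 0 and outlier spots left out. The labelled dyes gave each log2 ratio its direction, insecticide over water, and both arrays of MR A were averaged. A contig's ratio is the mean of its probes. Limma 3.58.1 (R 4.3.3; lmFit, eBayes) fitted one model per genotype for the responses and one model of all 7 replicates for SR minus MR, and p-values were adjusted over 14628 probes (Benjamini-Hochberg). Channel levels followed Aquantile scaling. The fits were run on simulated data with a spread far smaller than that of these contigs. That run checked the size and direction of estimates, not the power to detect changes here. The number of replicates limits the precision. The labels call replicates biological without saying how they were reared, so p-values measure the spread between these samples. The contigs and the amino acid list (from the study's list, by description) were chosen with earlier results of these data known, and named contigs are these and the 5 most similar to each. The reference table (assembly MPER_G0061.0) matched 0 of 10489 contigs, so no positions or sequences are given. Alternatives covered background, normalization, signal, filters, fits, MR arrays and leaving out each replicate.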

Additional observations from a re-analysis of the deposited data

How the results depend on the processing

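No alternative brought any of the 3 contigs past both thresholds in SR or MR or past an adjusted p of 0.05 between them, although the SR means exceeded a log2 ratio of 1 under most. Over 14 alternatives of signal, background, normalization, filter and fit, mean log2 ratios lay between 0.95 and 1.43 in SR for all 3 and between -1.27 and -0.76 in MR for contig6679 and contig9752, and every one kept its direction except contig427 in MR, which stood at -0.20 with the 3 MR arrays as separate replicates (0.21 with both MR A arrays averaged). Replicates decided the directions. Leaving out each in turn gave -0.53 to 2.56 for contig6679 in SR, -0.47 to 2.55 for contig9752 and -0.24 to 2.68 for contig427. In MR it gave -2.18 to 0.54, -2.05 to 0.49 and -0.998 to 1.41, and for SR minus MR 0.28 to 3.37, 0.31 to 3.33 and -0.45 to 2.48. For the water level, SR minus MR, it gave -2.27 to 0.79, -2.01 to 0.69 and -1.23 to 1.12. A genotype left with 1 sample was assumed to vary like the others. With the replicate letter as a replicate block, SR minus MR was 1.83 for contig6679, and no call changed. The methods describe parallel spraying without tying the letters to it, so the letters were not taken as pairs. Deviations from the genotype means correlated at r = -0.02 (SR A, MR A), 0.50 (S A, SR A), -0.37 (S A, MR A), 0.43 (S B, SR B) and 0.03 (S B, MR B). Counts of called probes, outside leaving out replicates, ranged from 17 to 51 up (24) and 45 to 242 down (139) in SR, from 1 to 13 up (2) and 58 to 120 down (91) in MR, 0 to 2 (0) for SR minus MR and 0 to 9 (4) for the water level. Leaving out SR A or SR B gave 13 or 115 up and 11 or 1008 down in SR, and leaving out MR A or MR B gave 131 or 411 up and 478 or 830 down in MR. The water count was 0 without any single replicate except S A (5). The causes were not tested.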
